A study of Mus musculus with 15 samples.

Results

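The genes described here mark the regenerative, fetal-like state of intestinal epithelium: Ly6a, Clu, Anxa1, Anxa3, Anxa8, Il33, Sprr1a and Spp1. Their probe sets were taken from the array's annotation by gene symbol, keeping probe sets annotated to exactly 1 symbol. Of the 8 genes, 6 had such a probe set (11 probe sets in all, among 18193 genes measured), and Ly6a and Spp1 were not analysed here. For each gene the brightest probe set, by its mean over the 15 arrays, was kept as the main value, and no filter on low values was applied.

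After injury, or in fetal life, intestinal epithelium can turn on a programme that differs from the Lgr5-positive crypt stem cell programme driven by Wnt signalling. YAP, a co-activator restrained by the Hippo kinases and bound to DNA by TEAD factors, is a known driver of it. Clu encodes the secreted chaperone clusterin and marks the so-called revival stem cell, Il33 an alarmin of the interleukin 1 family that signals through Il1rl1, and Sprr1a a proline-rich protein of the cornified envelope that is induced by stress. Anxa1, Anxa3 and Anxa8 encode annexins, which bind membrane phospholipids in the presence of calcium. Anxa1 also acts outside the cell on formyl peptide receptors to limit inflammation.

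Gene expression was measured in colon of male littermates aged 3 months, on a C57BL/6 and 129 hybrid background, with 3 Affymetrix Mouse430_2 arrays in each of 5 groups. The groups were tumour tissue and adjacent normal tissue of APC/Olfm4 mutant mice (APC+/-/Olfm4-/-), Olfm4 mutant colon (APC+/+/Olfm4-/-), APC mutant colon (APC+/-/OLFM4(+/+)) and wild type colon (APC+/+/Olfm4+/+). The labels give neither the APC allele nor whether the tissue was whole wall or mucosa. Tumour and adjacent arrays carry the numbers of 2 animals, one of which gave 2 of the 3 arrays of each tissue, so p-values reflect the spread of these arrays, and some of that spread lies within 1 animal. Among Olfm4 mutant arrays, the label of replicate 3 is made up of the last digits of the labels of replicates 1 and 2. Whether it holds RNA of those 2 animals is not stated and was not tested. Every fit took it as a separate animal, and the SDs and p-values of Olfm4 mutant colon rest on that. In such bulk samples, a change in the number of cells of a type and a change in RNA per cell cannot be told apart.

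Values are log2 probe set signals, from 2.56 to 14.96 over the whole table, with no detection call. Pan-epithelial genes were high in every group. Their mean over 6 genes (Epcam, the cell adhesion molecule of epithelia, among them) lay between 13.27 and 13.41 in tumours and between 13.53 and 13.92 in the other groups. These genes mark epithelium in general and do not test the colon label. The bacterial RNAs added before labelling showed a 3-prime minus 5-prime probe set difference of 4.94 ± 0.24 (SD, n = 3, log2) in tumours, 4.13 ± 0.27 in adjacent, 2.75 ± 0.53 in Olfm4 mutant, 2.31 ± 0.19 in APC mutant and 2.12 ± 0.076 in wild type arrays. The samples' own RNA moved likewise, with a Gapdh 3-prime minus 5-prime difference of 4.29 to 4.94 in tumours, 3.58 to 4.39 in adjacent, 0.753 to 2.76 in Olfm4 mutant, 0.617 to 0.72 in APC mutant and 0.562 to 0.638 in wild type arrays. For Actb it was 4.04 to 4.46 in tumours, 3.16 to 3.64 in adjacent, 2.24 to 2.87 in Olfm4 mutant, 1.43 to 2.17 in APC mutant and 1.01 to 1.27 in wild type arrays. The part of these differences in the results was not tested beyond the spike-in covariate given further on. The arrays were numbered group by group, so array number and group cannot be told apart. Wild type replicate 2 stood apart in the interferon response list, with a mean of 11.38 over 11 genes against 8.87 to 10.09 in the other 14 arrays.

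The sequences before the start sites of the gene that differed most between groups (Il33) and of the gene that differed most between replicates (Sprr1a) are shown for orientation. They are the 250 bases before each start in the RefSeq promoter table (build GRCm38.p6), in gene direction, which held 4 of the 6 genes. The 5 windows of these 4 genes were searched on both strands for the TEAD motif GGAATG, the AP-1 motif TGANTCA and the TCF motif CTTTGAT. Capitals mark a TEAD match in Il33 and AP-1 matches in Sprr1a. The first Il33 start (chr19:29924863-29925112, plus strand), the second Il33 start (chr19:29945540-29945789, plus strand) and the Sprr1a start (chr3:92485882-92486131, minus strand) read as follows.
Il33 start 1: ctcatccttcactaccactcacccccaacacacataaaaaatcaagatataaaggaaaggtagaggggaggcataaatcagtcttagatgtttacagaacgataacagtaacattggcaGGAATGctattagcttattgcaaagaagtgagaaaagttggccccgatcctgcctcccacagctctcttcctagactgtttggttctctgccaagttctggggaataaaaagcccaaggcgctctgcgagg
Il33 start 2: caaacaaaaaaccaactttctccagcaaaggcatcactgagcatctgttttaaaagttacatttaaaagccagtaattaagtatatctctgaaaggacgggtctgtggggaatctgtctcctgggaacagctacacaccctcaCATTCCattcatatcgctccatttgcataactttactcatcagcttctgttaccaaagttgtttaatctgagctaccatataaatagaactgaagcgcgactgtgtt
Sprr1a: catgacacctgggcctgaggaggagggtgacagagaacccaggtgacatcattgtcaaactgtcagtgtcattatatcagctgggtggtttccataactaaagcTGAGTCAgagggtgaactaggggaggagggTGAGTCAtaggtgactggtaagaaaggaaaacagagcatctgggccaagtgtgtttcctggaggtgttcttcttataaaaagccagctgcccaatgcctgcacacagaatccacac

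Each Il33 window held 1 TEAD match, its first base at -131 and -107 from the start. The Anxa1 window also held 1, at -236. Sprr1a held 2 AP-1 matches, at -146 and -116, and the Anxa8 window held none of the 3 motifs. The TCF motif was in none of the 5 windows. Over all 32851 promoter windows of the same length, 12.6% held the TEAD motif, 6.75% the AP-1 motif and 3.21% the TCF motif. A match describes the letters and does not show binding.

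Il33 was the gene of the set with the largest differences between groups. It stood at 11.46, 12.28 and 12.06 in tumours, at 9.31, 9.45 and 10.69 in adjacent tissue, at 8.94, 8.75 and 8.92 in Olfm4 mutant, at 8.36, 8.42 and 8.68 in APC mutant and at 8.49, 7.41 and 9.46 in wild type colon. All 3 tumour arrays lay above the other 12 arrays, whereas adjacent and wild type arrays overlapped. The tumours were 4.34-fold higher than adjacent tissue (log2 2.12, SE 0.45, limma adjusted p = 0.0031) and 11.2-fold higher than wild type colon (log2 3.48, SE 0.45, adjusted p = 3.5e-05). Adjacent tissue was 2.58-fold above wild type colon (log2 1.36, SE 0.45, adjusted p = 0.037). That call ended without adjacent replicate 2 (1.55, adjusted p = 0.05), adjacent replicate 3 (0.93, adjusted p = 0.16), wild type replicate 1 (1.38, adjusted p = 0.065) or wild type replicate 2 (0.84, adjusted p = 0.15). It also ended with animal as a random block (1.29, adjusted p = 0.069) or with arrays of an animal averaged (1.24, adjusted p = 0.091).

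In order of the mean, Il33 ran from tumour (11.93 ± 0.423, SD, n = 3) through adjacent (9.81 ± 0.763), Olfm4 mutant (8.87 ± 0.104) and APC mutant (8.49 ± 0.168) to wild type (8.45 ± 1.02). Of the neighbours in this order, the test separated tumour from adjacent tissue. It did not separate adjacent tissue from Olfm4 mutant colon (0.94, 95% interval -0.02 to 1.91, adjusted p = 0.32), Olfm4 mutant from APC mutant colon (0.38, -0.58 to 1.35, adjusted p = 0.77) or APC mutant from wild type colon (0.04, -0.93 to 1, adjusted p = 0.99). Adjacent tissue was 1.33 above APC mutant colon with no overlap of arrays, at an adjusted p of 0.058.

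Clusterin followed the same order at its upper end. Clu stood at 14.3, 14.12 and 14.08 in tumours, at 13.77, 13.48 and 13.64 in adjacent tissue, at 13.2, 12.87 and 13.19 in Olfm4 mutant, at 13.04, 12.92 and 13.4 in APC mutant and at 12.92, 11.75 and 13.24 in wild type colon. The tumour arrays lay above all others and the adjacent arrays above all 9 arrays of the remaining groups. Clu was 2.89-fold higher in tumours than in wild type colon (log2 1.53, SE 0.29, adjusted p = 0.00074). It was 1.99-fold higher in adjacent tissue than in wild type colon (log2 0.99, SE 0.29, adjusted p = 0.023).

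Between tumour and adjacent tissue Clu differed by 0.54 (SE 0.29, 95% interval -0.09 to 1.17, adjusted p = 0.2). With replicate number as a block, the difference was called (0.54, SE 0.12, adjusted p = 0.03). That block counts the animal sampled more than once as 2 blocks, and its tumour and adjacent pieces cannot be matched from the titles. The difference was not called with animal as a random block (0.54, adjusted p = 0.09) or with arrays of an animal averaged (0.54, adjusted p = 0.4). It was called in a fit of those 2 groups alone (adjusted p = 0.018). The spread in the full model includes that of wild type colon, where the SD of Clu was 0.787 against 0.118 in tumours and 0.144 in adjacent tissue. Without wild type replicate 2, the lowest array, adjacent tissue was 0.55 above wild type (adjusted p = 0.045). The same call ended without adjacent replicate 1 (0.92, adjusted p = 0.066) or adjacent replicate 3 (0.98, adjusted p = 0.062), and with arrays of an animal averaged (1.02, adjusted p = 0.066).

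All 4 Clu probe sets ranked tumour arrays above the arrays of every other group. Tested over all probe sets, the other 3 were 1.41, 1.43 and 1.49 higher in tumours than in wild type colon (adjusted p = 0.00084, 0.001 and 0.0039). For adjacent tissue against wild type colon, the other x_at probe sets stood at 0.97 and 1.02 (adjusted p = 0.018 and 0.017), whereas the a_at probe set stood at 0.62 (SE 0.35, adjusted p = 0.23). The suffix x marks probe sets with probes that can also match other sequences, and the kept probe set carries it too. The tumour difference from wild type thus held on the probe set without that suffix, while the adjacent difference from wild type was not called on it.

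**Figure D1:**
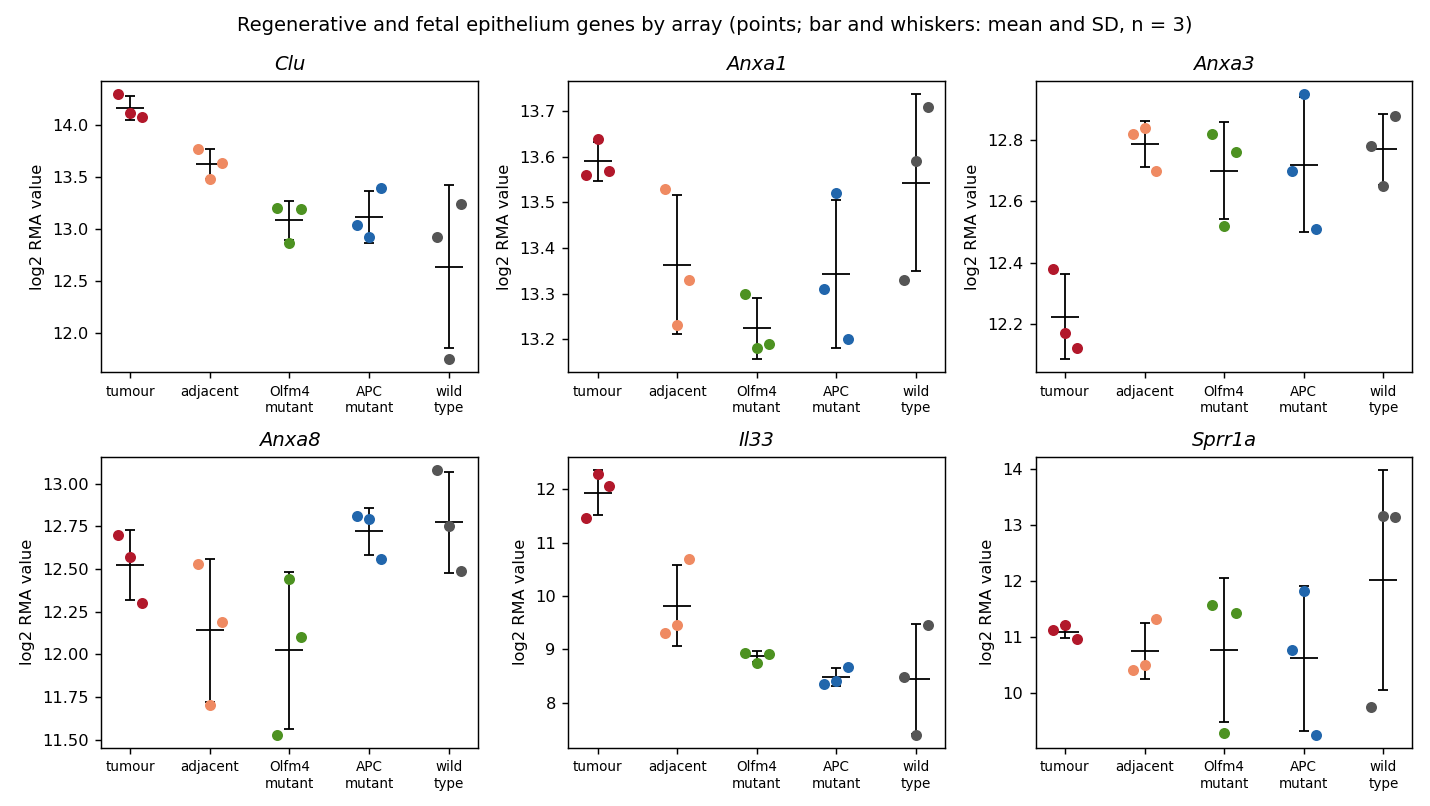
Log2 RMA value (vertical axes, a separate range for each gene) of the kept probe set of the 6 measured genes on each of the 15 arrays, by group, with the mean and SD of 3 arrays. Il33 and Clu are highest on the 3 tumour arrays, Anxa3 is lowest there, and Sprr1a spans 9.74 to 13.16 within wild type colon.

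The annexins moved by less and in different directions. Anxa3 was lower in tumours, at 12.38, 12.17 and 12.12, against 12.82, 12.84 and 12.7 in adjacent tissue, 12.82, 12.52 and 12.76 in Olfm4 mutant, 12.7, 12.95 and 12.51 in APC mutant and 12.78, 12.65 and 12.88 in wild type colon. The 3 tumour arrays lay below the other 12, which overlapped. The tumours were lower than adjacent tissue by a log2 difference of -0.56 (SE 0.13, adjusted p = 0.0063) and lower than wild type by -0.54 (SE 0.13, adjusted p = 0.0041). The means of adjacent (12.79), wild type (12.77), APC mutant (12.72) and Olfm4 mutant colon (12.7) lay within 0.09 of each other, with adjusted p of 0.74 or more between any pair. Averaging the arrays of each animal and tissue left the fall against adjacent tissue at -0.53 (adjusted p = 0.054).

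Anxa1 stood at 13.56, 13.64 and 13.57 in tumours, at 13.53, 13.23 and 13.33 in adjacent tissue, at 13.3, 13.18 and 13.19 in Olfm4 mutant, at 13.31, 13.52 and 13.2 in APC mutant and at 13.33, 13.59 and 13.71 in wild type colon. Tumour and wild type arrays overlapped, and Olfm4 mutant arrays lay at or below the lowest of both. Tumours differed from wild type colon by 0.05 (95% interval -0.22 to 0.32, adjusted p = 0.78) and from adjacent tissue by 0.23 (-0.05 to 0.5, adjusted p = 0.21). The call in Anxa1 was for tumour against Olfm4 mutant colon (0.37, SE 0.13, adjusted p = 0.034), the ends of its order of means. It ended without tumour replicate 1 (0.38, adjusted p = 0.06), 2 (0.34, 0.092) or 3 (0.37, 0.068), or without Olfm4 mutant replicate 2 (0.34, 0.082) or 3 (0.35, 0.095). It also ended with arrays of an animal averaged (0.36, adjusted p = 0.089). Values of the other Anxa1 probe set were low, from 3 to 4.26.

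The 2 probe sets of Anxa8 disagreed. The kept one stood at 12.7, 12.57 and 12.3 in tumours, at 12.53, 11.7 and 12.19 in adjacent tissue, at 11.53, 12.44 and 12.1 in Olfm4 mutant, at 12.81, 12.79 and 12.56 in APC mutant and at 13.08, 12.75 and 12.49 in wild type colon. Its groups overlapped except that Olfm4 mutant arrays lay below all APC mutant and wild type arrays, and adjacent arrays below all APC mutant arrays. None of its differences was called, with -0.25 (95% interval -0.79 to 0.29, adjusted p = 0.44) for tumour against wild type, -0.63 (-1.17 to -0.1, adjusted p = 0.076) for adjacent against wild type and -0.75 (-1.29 to -0.21, adjusted p = 0.083) for Olfm4 mutant against wild type. Without adjacent replicate 1 the adjacent difference became -0.83 (adjusted p = 0.038).

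The second Anxa8 probe set (s_at), whose suffix marks probes shared by several transcripts, stood at 9.54, 9.08 and 8.77 in tumours, at 9.04, 8.35 and 8.82 in adjacent tissue, at 9.43, 8.99 and 9.57 in Olfm4 mutant, at 11.49, 11.35 and 10.87 in APC mutant and at 12.03, 11.49 and 11.06 in wild type colon. The 9 arrays of mice lacking Olfm4 lay below the 6 arrays of mice with intact Olfm4. Its log2 difference from wild type colon was -2.4 for tumours (SE 0.28, limma adjusted p = 2.3e-05). The difference was -2.79 for adjacent tissue (adjusted p = 0.00011), and Olfm4 mutant colon stood at -2.2 (adjusted p = 0.0027). APC mutant colon stood at -0.29 (adjusted p = 0.85). The gap between the 2 probe sets on the same array was 3.16 to 3.53 in tumours, 3.35 to 3.49 in adjacent tissue and 2.1 to 3.46 in Olfm4 mutant, against 1.32 to 1.7 in APC mutant and 1.05 to 1.43 in wild type colon. Within Olfm4 mutant colon the widest gap fell on replicate 2, the array of that group with the widest spike-in difference (3.37, against 2.42 and 2.48 on the other 2). The part of the spike-in difference in this result was not tested.

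**Figure D2:**
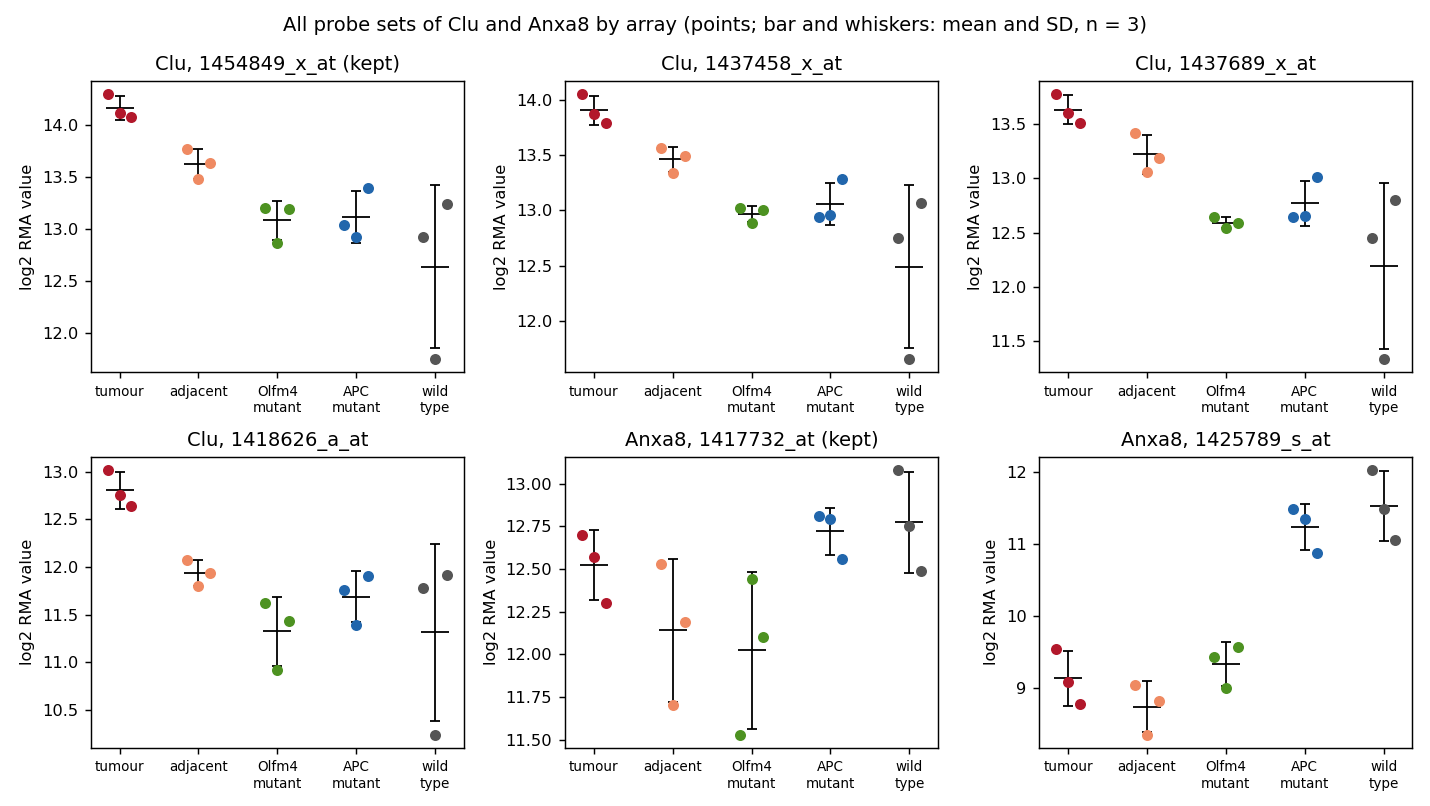
Log2 RMA value of the 4 Clu probe sets and the 2 Anxa8 probe sets on each of the 15 arrays, by group, with the mean and SD of 3 arrays. All 4 Clu probe sets are highest on the tumour arrays, while the s_at probe set of Anxa8 is 8.35 to 9.57 in tumour, adjacent and Olfm4 mutant arrays and 10.87 to 12.03 in the other 6, a step that the kept probe set lacks.

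Sprr1a varied widely within Olfm4 mutant, APC mutant and wild type colon. It stood at 11.11, 11.2 and 10.96 in tumours, at 10.4, 10.5 and 11.32 in adjacent tissue, at 11.57, 9.28 and 11.42 in Olfm4 mutant, at 10.76, 11.82 and 9.25 in APC mutant and at 9.74, 13.16 and 13.13 in wild type colon. Every pair of groups overlapped, and the 2 highest arrays and 1 of the 3 lowest were wild type. The SD was 0.121 in tumours and 0.505 in adjacent tissue, against 1.28 in Olfm4 mutant, 1.29 in APC mutant and 1.97 in wild type colon. Tumour and adjacent arrays come from 2 animals, so these SDs cover unlike numbers of animals. No difference was called. Tumours stood at 0.35 against adjacent tissue (95% interval -1.56 to 2.27, adjusted p = 0.82) and at -0.92 against wild type colon (-2.84 to 0.99, adjusted p = 0.42). Without wild type replicate 1, tumours were -2.06 (adjusted p = 0.031), adjacent tissue -2.41 (adjusted p = 0.025) and Olfm4 mutant colon -2.39 (adjusted p = 0.047) from wild type.

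Calls among the measured genes were read against those among all genes. For tumour against adjacent tissue 1 of the 6 rose (Il33) and 1 fell (Anxa3), where 28.1% of all genes were called, 14.3% higher and 13.8% lower, with a median of 0.37 for the 6 and 0 for all genes. The arrays of the 2 tissues did not overlap in 4 of the 6 genes (Il33, Clu and Anxa1 higher, Anxa3 lower) and in 45.9% of all genes. For tumour against wild type 2 rose (Il33, Clu) and 1 fell (Anxa3), where 49.4% of all genes were called, 29.3% higher and 20.1% lower, with medians of -0.1 and 0.11. Those 3 genes were also the ones without overlap, as were 55.2% of all genes. For adjacent tissue against wild type 2 rose (Il33, Clu), where 27.8% of all genes were called and 17.7% of all genes were higher, with medians of -0.08 and 0.13. Clu was the 1 gene without overlap there, against 40.1% of all genes. In these 3 comparisons the share of the 6 genes called was close to that of all genes. In tumour against APC mutant colon the same 3 genes were called as against wild type (47.4% of all genes), with Il33 at 3.45 and Clu at 1.05. In tumour against Olfm4 mutant colon Anxa1 was called in addition (39.8% of all genes), with Il33 at 3.06 and Clu at 1.08, and the Anxa3 call there (-0.47, adjusted p = 0.012) ended without Olfm4 mutant replicate 1 (-0.41, adjusted p = 0.054) or with arrays of an animal averaged (-0.43, adjusted p = 0.055). These comparisons share tumour or wild type arrays.

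Neither single mutation gave a call on the kept probe sets, while the s_at probe set of Anxa8 was called lower in Olfm4 mutant colon, as given above. For Olfm4 mutant against wild type colon limma called 0 of the 6, where 7.92% of all genes were called. Anxa1 (-0.32) and Anxa8 (-0.75) had an unadjusted p below 0.05, as did 4467 of all 18193 genes. For APC mutant against wild type colon it called 0 of the 6 and 0% of all genes. There 0 of the 6 had an unadjusted p below 0.05, against 1324 of all genes. For adjacent against APC mutant colon 0 were called (17.3% of all genes). Anxa8 (-0.58) and Il33 (1.33) were below an unadjusted 0.05, as were 6025 of all 18193 genes, a like share. For adjacent against Olfm4 mutant colon 0 were called and 0 were below an unadjusted 0.05 (0.044% of all genes called, 2960 genes below an unadjusted 0.05). Olfm4 mutant against APC mutant colon, used for the order of levels, had 0 called (0.242% of all genes). The interaction set adjacent minus APC mutant colon against Olfm4 mutant minus wild type colon. It asks whether the difference with Olfm4 loss was the same on both APC backgrounds. Its APC/Olfm4 mutant arrays are of tissue beside tumours, so genotype and nearness to a tumour cannot be told apart. The interaction called 0 of the 6 and 0% of all genes. For it 0 of the 6 were below an unadjusted 0.05, against 1901 of all genes. Its estimate for Il33 was 0.91 (95% interval -0.46 to 2.27).

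**Figure D3:**
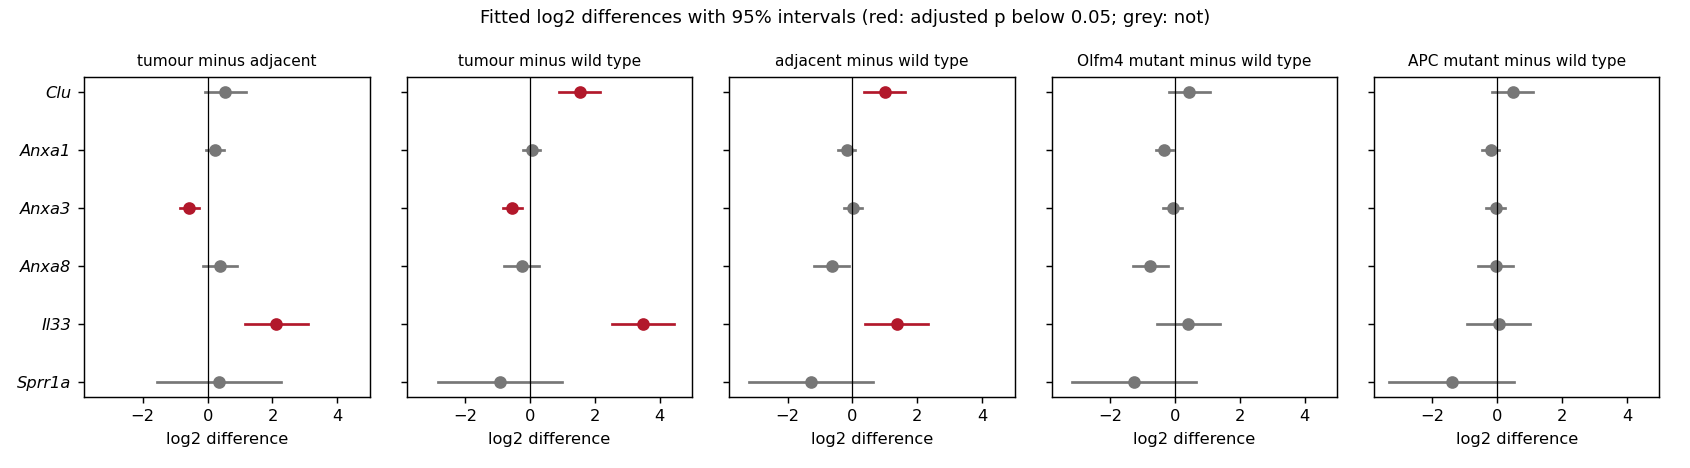
Fitted log2 difference (horizontal axes) of each of the 6 measured genes in 5 comparisons, with its 95% interval; red marks an adjusted p below 0.05. Il33 (2.12) and Anxa3 (-0.56) are red for tumour against adjacent tissue, and no gene is red for either single mutant against wild type colon.

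With the spike-in difference as a covariate 0 of the 6 genes were called in these comparisons. The same fit called 2497 of the 18193 genes for tumour against adjacent tissue, 3 for tumour against wild type and 0 for adjacent against wild type, so the count of 0 against wild type is not particular to these genes. Il33 then stood at 1.81 for tumour against adjacent tissue (SE 0.66, adjusted p = 0.097) and at 2.39 against wild type colon (SE 1.7, adjusted p = 0.83). Clu stood at 1.96 for tumour against wild type colon (SE 1.1, adjusted p = 0.74). Anxa3 stood at -0.4 against adjacent tissue (SE 0.19, adjusted p = 0.2) and at 0.03 against wild type colon (SE 0.48, adjusted p = 1). Against wild type the standard errors widened to 1.7 from 0.45 for Il33 and to 1.1 from 0.29 for Clu.

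**Figure D4:**
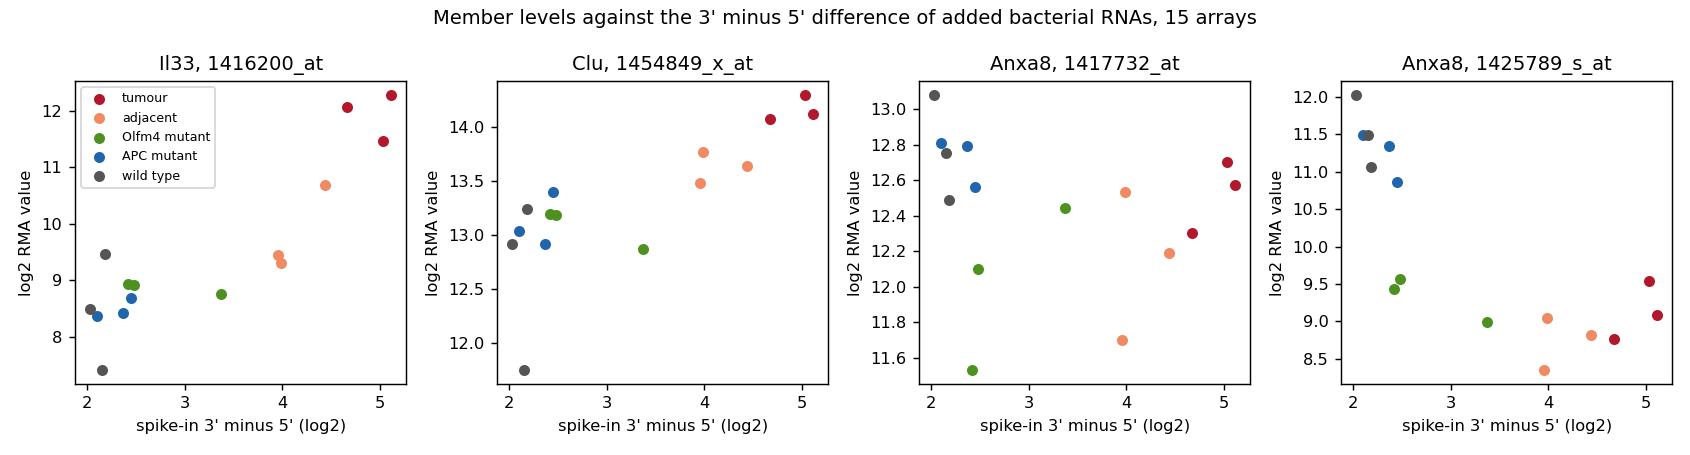
Log2 RMA value of Il33, Clu and both Anxa8 probe sets (vertical axes) against the 3-prime minus 5-prime difference of the added bacterial RNAs (horizontal axes, log2) on the 15 arrays. Tumour arrays lie at 4.67 to 5.12 on the horizontal axis, adjacent arrays at 3.96 to 4.44 and the other groups at 2.03 to 3.37, so groups and spike-in difference run together.

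Effectors and targets of YAP were examined next. Of 16 measured genes of this list 4 rose in tumours against adjacent tissue and 0 fell, where 14.3% of all genes rose and 13.8% fell, with a median of 0.37 against 0 for all genes. Tead2, a TEAD factor, was at 10.5, 10.91 and 10.84 in tumours against 7.2, 7.32 and 8.01 in adjacent tissue (log2 3.24, SE 0.25, adjusted p = 1.6e-06). Ajuba, a LIM protein that inhibits the Hippo kinases, rose by 2.8 (SE 0.33), Tead1 by 0.96 (SE 0.18) and Yap1 itself by 0.63 (SE 0.12). The 3 tumour arrays lay above all adjacent arrays in each of these 4 genes. The target genes Ccn1 at 0.69 (adjusted p = 0.44) and Ccn2 at 0.11 (adjusted p = 0.82) did not pass, nor did the growth factor Ereg at 0.43 (adjusted p = 0.74).

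Against wild type colon 9 of these 16 genes rose in tumours and 1 fell, where 29.3% of all genes rose and 20.1% fell (median 0.66, all genes 0.11). Beside Ajuba (3.7) and Tead2 (3.66), Ankrd1 rose by 2.8 and Wwtr1, which encodes TAZ, by 1.33, while the receptor kinase Axl was lower by -1.4. In adjacent tissue against wild type colon 3 rose, Ankrd1 by 2.01, Wwtr1 by 0.86 and the kinase Nuak2 by 0.7, and 0 fell. There 17.7% of all genes rose.

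Other genes of the regenerative and fetal programme did not move as one. Of 19 measured 4 rose and 1 fell in tumours against adjacent tissue (median 0.21), where 14.3% of all genes rose and 13.8% fell. Krt7, a keratin of simple ducts, rose by 1.1 (SE 0.21, adjusted p = 0.0016) and Anxa10 by 0.9. Anxa5 rose by 0.84 and the fetal RNA-binding protein Igf2bp3 by 0.7, while Krt19 was lower by -0.42. Values of Anxa10 were low, from 4.07 to 5.95 over the 15 arrays. Its tumour and adjacent arrays overlapped, with tumour replicate 1 at 4.61 and adjacent replicate 3 at 4.78. Against wild type colon 2 rose and 5 fell in tumours (median -0.31, all genes 0.11), where 29.3% of all genes rose and 20.1% fell. Those that rose were Anxa10 (1.07) and the gap junction gene Gja1 (0.44), and the largest falls were Ly6d (-1.81) and the interleukin 1 receptor antagonist Il1rn (-1.15). In adjacent tissue against wild type colon 0 rose and 6 fell (median -0.33), where 27.8% of all genes were called and 17.7% rose. Among the 6 were Tnfrsf12a, the TWEAK receptor, at -2.16, Ly6d at -1.74 and the growth factor Igf2 at -1.49. The Tnfrsf12a arrays overlapped, with wild type replicate 1 at 8.03 and adjacent replicate 1 at 8.69, and its wild type SD was 1.8.

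Among 8 other annexins 3 rose and 1 fell in tumours against adjacent tissue (median 0.31), with Anxa6 at 1.54, Anxa10 and Anxa5 as above, and Anxa13 at -1.56. Anxa2 stood at 0.16 (adjusted p = 0.39). The wider Ly6 family had 0 risen and 1 fallen of 10 measured (Lypd8, -0.29). Of 11 other Sprr and cornified envelope genes 2 rose, Sprr2d by 2.61 and the transglutaminase Tgm1 by 0.63, and Tgm3 fell by 2.76. For all genes this comparison had 14.3% risen and 13.8% fallen.

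The receptor side of these ligands was measured for 10 of 12 listed genes, with Il1rl1 not analysed here. Il1rap, the co-receptor of Il33, stood at 0.46 in tumours against adjacent tissue (adjusted p = 0.2). In this list 3 rose and 1 fell (median 0.3), where 14.3% of all genes rose and 13.8% fell. Cd44, a receptor of osteopontin and hyaluronan, rose by 1.24 (SE 0.22, adjusted p = 0.001) and the integrin chain Itgb1 by 0.47 (SE 0.1). The formyl peptide receptor Fpr2, which binds Anxa1, rose by 1.69 (SE 0.58, adjusted p = 0.045). The Fpr2 arrays overlapped, with tumour replicate 1 at 8.89 and adjacent replicate 3 at 9.12. The integrin chain Itga4 was lower by -0.83 (SE 0.18).

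**Figure D5:**
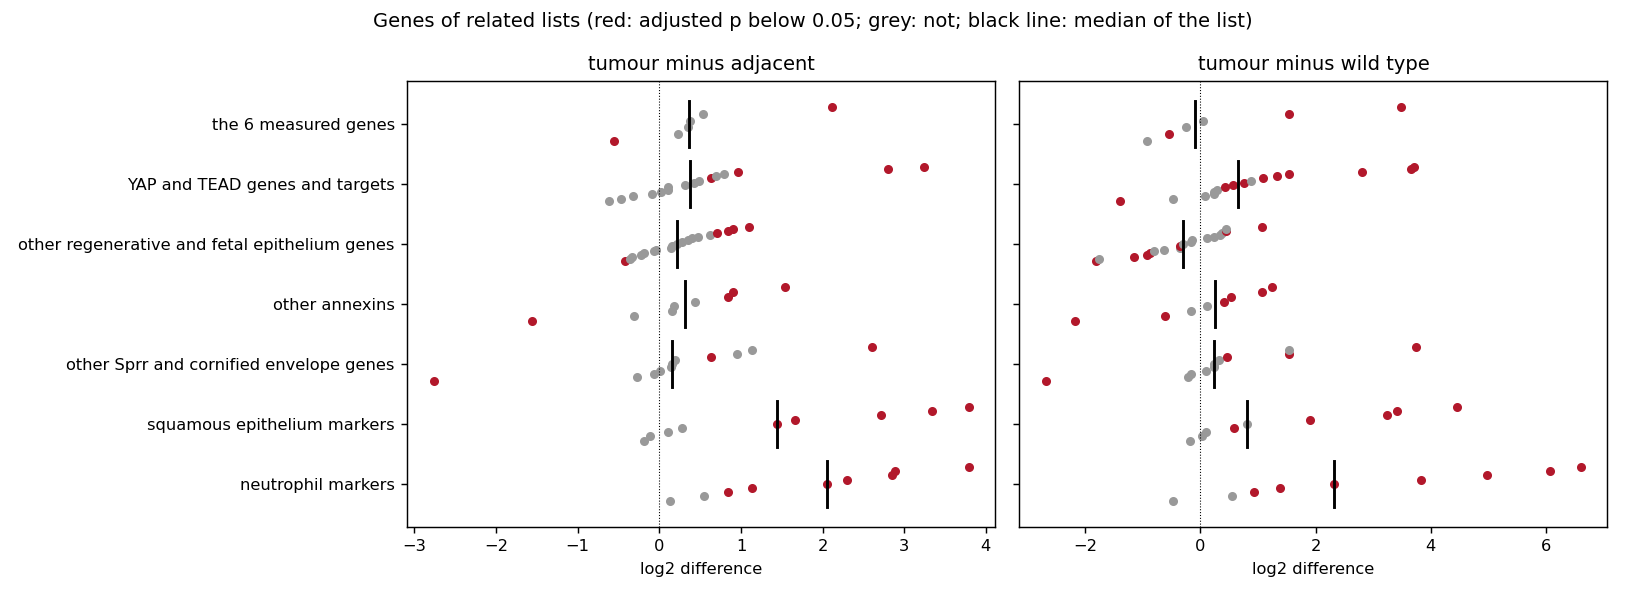
Log2 difference (horizontal axes) of each measured gene of 7 lists, for tumour against adjacent tissue and tumour against wild type colon; red marks an adjusted p below 0.05 and the black line the median of the list. The medians of neutrophil (2.05) and squamous epithelium markers (1.44) against adjacent tissue lie above those of the 6 measured genes and of the YAP list (0.37 each).

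Markers of other cells that can express these genes moved as follows, and their part in the results was not tested. Of all genes 14.3% rose and 13.8% fell in tumours against adjacent tissue. Neutrophils are known to express Anxa1 and Anxa3, and their markers rose in 7 of 9 cases in tumours against adjacent tissue (median 2.05, mean level 7.53 to 8.96 in tumours and 5.91 to 7.49 in adjacent arrays), with Mmp9 at 3.79. In adjacent tissue replicate 3 had the highest Il33 (10.69) and also the highest S100a8 (12.53, against 8.18 and 9.66). The same array had the highest mean of the crypt base stem cell marker list in its group (9.51, against 8.9 and 9.31). Its YAP list mean (9.19) lay between those of replicates 1 and 2 (9.21 and 9.18). Of the 4 genes of that list called higher in tumours, Ajuba (8.67, against 7.37 and 7.7) and Tead2 (8.01, against 7.2 and 7.32) were highest on this array. Yap1 (11.87, against 11.92 and 11.75) lay between the others, and Tead1 (9.67, against 9.81 and 9.74) was lowest. The spike-in difference of this array was the widest of its group (4.44, against 3.99 and 3.96). Endothelial cells and fibroblasts are known to express Il33. Endothelial markers were called in 0 of 9 cases (median -0.19, 7.82 to 8.18 in tumours and 7.83 to 8.18 in adjacent arrays). Fibroblast markers rose in 1 of 8 cases (Pdgfra) and fell in 1 (Lum), with a mean level of 10.86 to 11.27 in tumours and 10.88 to 11.31 in adjacent arrays. Against wild type colon, fibroblast markers rose in 5 of 8 cases and fell in 2 in tumours (median 0.67, all genes 0.11). In adjacent tissue 4 rose and 1 fell (median 0.5, all genes 0.13). Endothelial markers against wild type rose in 3 of 9 cases and fell in 4 in tumours, and rose in 1 and fell in 3 in adjacent tissue. Of all genes 29.3% rose and 20.1% fell in tumours, and 17.7% rose in adjacent tissue.

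Stratified squamous epithelium is known to express Sprr1a and Anxa8, and its markers rose in 5 of 9 cases in tumours against adjacent tissue (median 1.44, mean level 7.53 to 7.6 in tumours and 5.92 to 6.23 in adjacent arrays). Dsc3, a desmosomal cadherin, rose by 3.79, Krt6a by 3.34 and Krt14 by 2.72, whereas Krt5 at -0.19, Krt1 at 0.1 and the squamous lineage factor Trp63 at 0.28 did not pass. Trp63 lay from 4.72 to 5.87 over the 15 arrays. Smooth muscle markers fell in 6 of 6 cases (median -3.38) and absorptive colonocyte markers in 6 of 6 (median -3.54). Macrophage markers fell in 2 of 10 cases (Cd163 and Mrc1) and rose in 0. T cell markers were called in 0 of 6 cases, B cell markers fell in 3 of 3 and enteric glia markers in 2 of 3. All of these counts are for tumours against adjacent tissue, where 14.3% of all genes rose and 13.8% fell.

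Genes with a pattern most like each member over the 15 arrays are given by Pearson's r as a description. The arrays share their group structure, so a high r mainly reflects group levels. For Il33 they were Rnf180 (0.976), which encodes a ubiquitin ligase, and Ttc9 (0.972), with Ttc9 averaging 11.98 in tumours, 8.61 in adjacent and 6.87 in wild type colon. For Clu they were Snn (0.945) and Mfge8 (0.935), which encodes a protein that bridges dying cells to phagocytes. For Anxa3 they were Atp12a (0.943), a proton pump subunit of the colon surface, which averaged 9.1 in tumours and 11.93 in adjacent tissue, and Ehbp1l1 (0.924). For Anxa1 they were Adss (0.926) and Rhoa (0.917), and for Anxa8 Dus2 (0.838) and Ftsj1 (0.835).

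For Sprr1a they were the keratin gene Krt6b (0.844) and Tnfrsf12a (0.838). Tnfrsf12a stood at 8.03, 11.42 and 10.72 in wild type replicates 1, 2 and 3, where Sprr1a stood at 9.74, 13.16 and 13.13. In APC mutant colon both were highest in replicate 2 and lowest in replicate 3, and in Olfm4 mutant colon both were lowest in replicate 2. Adjacent tissue ran otherwise, with Sprr1a at 10.4, 10.5 and 11.32 where Tnfrsf12a stood at 8.69, 7.49 and 7.5.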

How the data were processed

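The authors deposited log2 values per probe set. The submitters' processing notes name RMA and Partek 6.5. RMA normalizes arrays together, so a shift of most genes one way is largely removed, and array medians lay between 6.35 and 6.47. The genome build is not given in the sources used here.

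Of 45101 probe sets 64 are controls, 34945 carry 1 gene symbol, 932 several and 9160 none in the annotation used. A model with a mean for each of the 5 groups was fitted by limma 3.58.1 (lmFit and eBayes, R 4.3.3), without a filter, and p-values were adjusted over 18193 genes (Benjamini-Hochberg, threshold 0.05), or over all non-control probe sets for second probe sets. The fit was tested on simulated data. The number of arrays limits the precision.

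By their titles, tumour and adjacent arrays of the same number come from the same animal, and their deviations from group means correlated at 0.281, -0.0155 and 0.182. Alternatives were other probe set rules, a filter on dim genes at the median gene mean of 8.39, cyclic loess, other variance priors and weights, smaller fits, the spike-in covariate, animal as a block or averaged, a replicate block and leaving out each array.

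Named genes were the members, up to 5 called genes of largest difference per list, and 2 by Pearson's r per member. List genes named without a call, and single-array values, were picked once values were known. The members and lists were chosen with earlier results of these data known.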

Additional observations from a re-analysis of the deposited data

How the results depend on the processing

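In tumour against adjacent tissue the 2 genes called became 0 with the spike-in covariate (2497 of all 18193 genes called, against 5112 without it) and 1 (Il33) with arrays of an animal averaged (3286 of all genes), and were 2 without any one array. The replicate block called 3 (4940 of all genes), adding Clu (0.54, adjusted p = 0.03), and changed no other call. In tumour against wild type the 3 called became 5 with the most variable probe set per gene (9944 of all genes called, against 8996), which adds Anxa1 and Anxa8. That Anxa1 call is from its low probe set, with values from 3 to 4.26. The 3 called became 0 with the spike-in covariate (3 of all genes called, against 8996 without it), and ranged from 3 to 4 as arrays were left out. In adjacent tissue against wild type the 2 called became 3 with the mean of all probe sets (4499 of all genes called), which adds Anxa8 (-1.71, adjusted p = 0.00045). They became 1, with Il33 lost, with cyclic loess (4798 of all genes called, against 5056) or animal as a random block (4128). They became 0 with only the groups compared (3184 of all genes), the spike-in covariate (0) or arrays of an animal averaged (3360). They ranged from 0 to 2 as arrays were left out. For adjacent against APC mutant colon 0 (3154 of all genes) became 1 with the mean of all probe sets (3194), the filter on dim genes (2589 of 9096) or the trend and robust prior (3218). It became 2 with the most variable probe set (4707 of all genes) or array weights (4896). For Olfm4 mutant against wild type 0 (1440 of all genes) became 1 with the mean of all probe sets (1008), the most variable probe set (2141) or array weights (2779). The count ranged from 0 to 2 as arrays were left out. For tumour against APC mutant colon the 3 called became 5 with the most variable probe set (9658 of all genes called, against 8629) or with probe sets averaged (8617). Both settings draw on the low Anxa1 probe set. The 3 called became 0 with the spike-in covariate (6 of all genes called). For tumour against Olfm4 mutant colon the 4 called became 2 (Clu, Il33) with arrays of an animal averaged (5931 of all genes, against 7233) and 0 with the spike-in covariate (121). Counts for APC mutant against wild type, adjacent against Olfm4 mutant and the interaction stayed at 0 under every alternative run. With the spike-in covariate Anxa3 changed sign, to 0.03 for tumour against wild type (adjusted p = 1) and to 0.04 for tumour against APC mutant colon (adjusted p = 0.99). The cause was not tested. Il33 in tumours kept its direction throughout, from 1.81 to 2.56 against adjacent tissue and from 2.39 to 3.99 against wild type (adjusted p from 0.00054 to 0.097 and from 1.5e-05 to 0.83). Clu in tumours ran from 1.08 to 1.96 against wild type (adjusted p from 0.00022 to 0.74). Groups of 3 arrays and the lack of a detection call limit what can be said of small differences.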

Other observations

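Crypt base stem cell markers, the alternative epithelial programme, rose in tumours against adjacent tissue in 5 of 6 measured cases and fell in 1 (median 2.04). Of all genes 14.3% rose and 13.8% fell. Lgr5, the receptor that defines these cells, stood at 8.41, 8.53 and 8.42 in tumours, against 5.11, 5.72 and 6.05 in adjacent tissue (log2 2.83, SE 0.23, limma adjusted p = 2.5e-06). The same tumour arrays thus carried the highest Lgr5, Clu and Il33 values of the series. The interferon response list had 0 of 11 genes called in either direction in tumours against adjacent tissue (median -0.21). Against wild type colon 0 rose and 3 fell in tumours, Irf7 by -1.81, Bst2 by -1.8 and Stat2 by -1.04, where 29.3% of all genes rose and 20.1% fell. Wild type replicate 2, with the highest interferon list mean (11.38), had the lowest Il33 (7.41) and the lowest Clu (11.75) of the 15 arrays.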
